A study of Mus musculus with 3 samples.

Results

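The genes examined were 9 of the 22954 genes in the deposited tables of the irradiated mouse lung, namely *H2-Aa*, *H2-Ab1*, *H2-Eb1*, *Cd74*, *Ciita*, *H2-DMa*, *H2-DMb1*, *H2-DMb2* and *H2-Ob*. They were chosen by name, as genes of antigen presentation by MHC class II, and all 9 were in the tables. The data were single-cell RNA libraries, made with the droplet-based 10x Genomics system, of dissociated lung tissue of 3 female C57BL6/J mice labelled WT, 1 mouse per condition. All 3 mice had received 13 Gy to the thorax and their lungs were taken 5 months later. The CONV mouse was irradiated at a conventional dose rate and the FLASH mouse at a very high one. The CONV AsiDNA mouse was irradiated like the CONV mouse after injections of AsiDNA, a short double-stranded DNA molecule that acts on DNA repair, at 100 mg/kg on each of 2 days before and 200 mg/kg on the day of irradiation. Control libraries were not analysed here, so no unirradiated level stands beside the values. With 1 mouse per condition there was no replicate and no test, and differences between mice cannot be told apart from differences between treatments.

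MHC class II molecules carry peptides of engulfed proteins to the cell surface, where CD4 T cells read them. The α and β chains of I-A (*H2-Aa*, *H2-Ab1*) pair in the endoplasmic reticulum with the invariant chain (*Cd74*), which is then digested in lysosomes. *H2-Eb1* encodes the β chain of I-E. The gene of the I-E α chain, *H2-Ea*, was not among the genes of the deposited tables. *H2-Eb1* is therefore read here as message and not as a surface molecule. The exchange factor H2-M (*H2-DMa* with *H2-DMb1* or *H2-DMb2*) loads peptide, H2-O (whose β chain is *H2-Ob*) restrains H2-M, and CIITA (*Ciita*) is the coactivator that switches the whole set on. Dendritic cells, B cells and macrophages are the professional presenting cells of the lung, and alveolar type 2 (AT2) cells, which make surfactant, are known to carry class II as well.

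*H2-Aa*, *H2-Ab1*, *H2-Eb1*, *H2-DMa*, *H2-DMb1*, *H2-DMb2* and *H2-Ob* lie together on chromosome 17 of the GRCm38 (mm10) build, from *H2-DMa* at chr17:34119541-34139101 to *H2-Eb1* at chr17:34305867-34316674. *Ciita* lies apart from them, at chr16:10480059-10528418. CIITA acts through proteins bound to a conserved stretch, of which the X box (bound by RFX) and the Y box (bound by NF-Y) are the best known parts. The promoters below are shown because the genes they belong to shared one arrangement of letters although their levels differed between cell types. They run 5′ to 3′ from 250 bases before to 50 bases after the RefSeq start on GRCm38.p6. Capitals mark an X-box-like match to CTNNNAAC followed after 10 to 40 bases by the Y box GATTGG, both on the strand of the gene. RefSeq promoters were at hand for 6 of the 9 genes, 7 promoters in all. The windows were, for *H2-Aa*, chr17:34287774-34288073 (minus strand) and, on the plus strand, chr17:34305617-34305916 for *H2-Eb1*, chr17:34152941-34153240 for *H2-DMb1*, chr17:34144999-34145298 for *H2-DMb2* and chr17:34238655-34238954 for *H2-Ob*.
H2-Aa: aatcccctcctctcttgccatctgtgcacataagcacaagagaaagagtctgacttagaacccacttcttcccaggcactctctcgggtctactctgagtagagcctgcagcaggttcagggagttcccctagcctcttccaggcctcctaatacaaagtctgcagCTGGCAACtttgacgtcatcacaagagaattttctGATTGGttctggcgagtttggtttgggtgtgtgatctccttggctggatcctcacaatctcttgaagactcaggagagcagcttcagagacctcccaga
H2-Eb1: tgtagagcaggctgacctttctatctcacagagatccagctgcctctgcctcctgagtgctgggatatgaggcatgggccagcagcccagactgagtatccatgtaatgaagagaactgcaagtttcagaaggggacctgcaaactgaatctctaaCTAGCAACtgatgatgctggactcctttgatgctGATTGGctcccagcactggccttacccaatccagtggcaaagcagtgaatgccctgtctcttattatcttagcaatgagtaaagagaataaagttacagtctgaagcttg
H2-DMb1: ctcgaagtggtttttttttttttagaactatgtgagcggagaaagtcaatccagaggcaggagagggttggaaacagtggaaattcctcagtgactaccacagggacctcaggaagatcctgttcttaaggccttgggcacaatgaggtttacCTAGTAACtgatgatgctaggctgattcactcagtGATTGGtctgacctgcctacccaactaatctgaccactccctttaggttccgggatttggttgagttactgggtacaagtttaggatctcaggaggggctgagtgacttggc
H2-DMb2: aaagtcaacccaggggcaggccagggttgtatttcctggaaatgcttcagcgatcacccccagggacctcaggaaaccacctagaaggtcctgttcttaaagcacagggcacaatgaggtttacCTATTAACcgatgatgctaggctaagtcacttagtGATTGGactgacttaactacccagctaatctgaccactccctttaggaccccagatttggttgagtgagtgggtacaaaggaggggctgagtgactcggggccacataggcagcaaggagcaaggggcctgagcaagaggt
H2-Ob: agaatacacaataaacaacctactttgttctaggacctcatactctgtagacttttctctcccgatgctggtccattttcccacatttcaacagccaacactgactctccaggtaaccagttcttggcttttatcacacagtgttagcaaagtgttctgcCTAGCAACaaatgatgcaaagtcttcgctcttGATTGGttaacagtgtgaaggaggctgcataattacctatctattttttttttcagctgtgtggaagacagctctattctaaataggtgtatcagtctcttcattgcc

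The arrangement was found in 5 of the 7 promoters, with 24 to 27 bases between the boxes and the X-box-like match 84 bases before the start in *H2-Aa*, 94 in *H2-Eb1*, 97 in *H2-DMb1*, 126 in *H2-DMb2* and 90 in *H2-Ob*. Neither of the promoters of *H2-DMa* held it, in windows at chr17:34122582-34122881 and chr17:34125268-34125567. Both lie inside the span given for that gene, and other starts within it were not examined. Over all 32851 RefSeq promoters of the same length, 0.244% held the arrangement on the strand of the gene and 0.49% on either strand, while 41.1% held an X-box-like match and 16.1% a Y box on either strand. The letters were written down after these promoters had been looked at, so the counts describe the match and nothing more.

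Cells were assigned to 27 classes by a gate on marker genes, none of which was a class II gene. A cell took the class with the largest share of its markers above 0, with at least 3 of them above 0, and 19114 of 19619 cells had one leading class. The gated cells are called X-like after their markers. Dendritic-like cells were 816 in all, made up of 301 cDC1-like (*Xcr1*, *Clec9a*), 408 cDC2-like (*Cd209a*, *Clec10a*), and 107 mature DC-like cells (*Ccr7*, *Fscn1*). There were 4105 B-like, 1089 interstitial macrophage-like, 882 resident alveolar macrophage-like, 1183 *Spp1* *Gpnmb* alveolar macrophage-like, 1004 AT2-like and 718 general capillary endothelial-like cells. In a clustering of all cells without the class II genes, 88% or more of the cells of each of these classes fell into clusters named from the same markers, except 80.88% of the cDC2-like cells. The alveolar macrophage classes lay close to each other, since 24.04% of the resident and 20.54% of the *Spp1* *Gpnmb* cells were within 0.1 of the next class in marker share, against 13.37% of the general capillary and 5.051% or less of the B-like, AT2-like and interstitial macrophage-like cells. The libraries shared 9 to 17 cell barcodes per pair. No doublet call was applied to the main values.

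The deposited values were natural logs of 1 plus a whole number, called the adjusted count here. A level is the sum over the cells of a class per 1000000 adjusted counts of that class (adjusted CPM), and the mean over the 3 libraries ± SD (n = 3) describes the spread between 3 differently treated mice. The values carry no gene length, so levels are compared between classes and libraries and not between genes. Median totals were near each other, at 3450, 3678 and 3621 adjusted counts per cell for CONV, CONV AsiDNA and FLASH. A value of 0 did not mean that a transcript was absent, because genes that every cell uses were also at 0. Among AT2-like cells *B2m* was above 0 in 5.862%, 27.36% and 19.74% (CONV, CONV AsiDNA, FLASH), and *Ftl1* was listed at 0 in every AT2-like cell of CONV against 30.09% and 52.47% of cells above 0 in the others. Such genes are therefore called listed at 0. How far the adjustment contributed to a difference between libraries was not tested. In T, NK, ILC2, neutrophil, fibroblast, smooth muscle or pericyte, mast or basophil and mesothelial-like cells, pooled as a background (2087, 1997 and 2074 cells), *H2-Ob* was above 0 in 1.006%, 0.2003% and 1.35% of cells and each of the other 8 genes in at most 0.3505%.

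cDC2-like cells held the most class II message. The 9 genes together reached 83083 ± 1702 adjusted CPM there, against 59039 ± 6285 in interstitial macrophage-like and 58851 ± 953 in cDC1-like cells, whose ranges overlapped. B-like cells (29206 ± 4230) and mature DC-like cells (28552 ± 3846) followed and overlapped each other. Resident alveolar macrophage-like cells reached 10802 ± 1234, above the *Spp1* *Gpnmb* alveolar macrophage-like (6045 ± 1709) and AT2-like cells (5854 ± 1269), and the last of these overlapped. Classical monocyte-like cells came next with 2362 ± 1845, although no cluster carried that name. *Cd74* was the largest single part of these sums, and the single genes did not all keep this order.

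**Figure D1:**
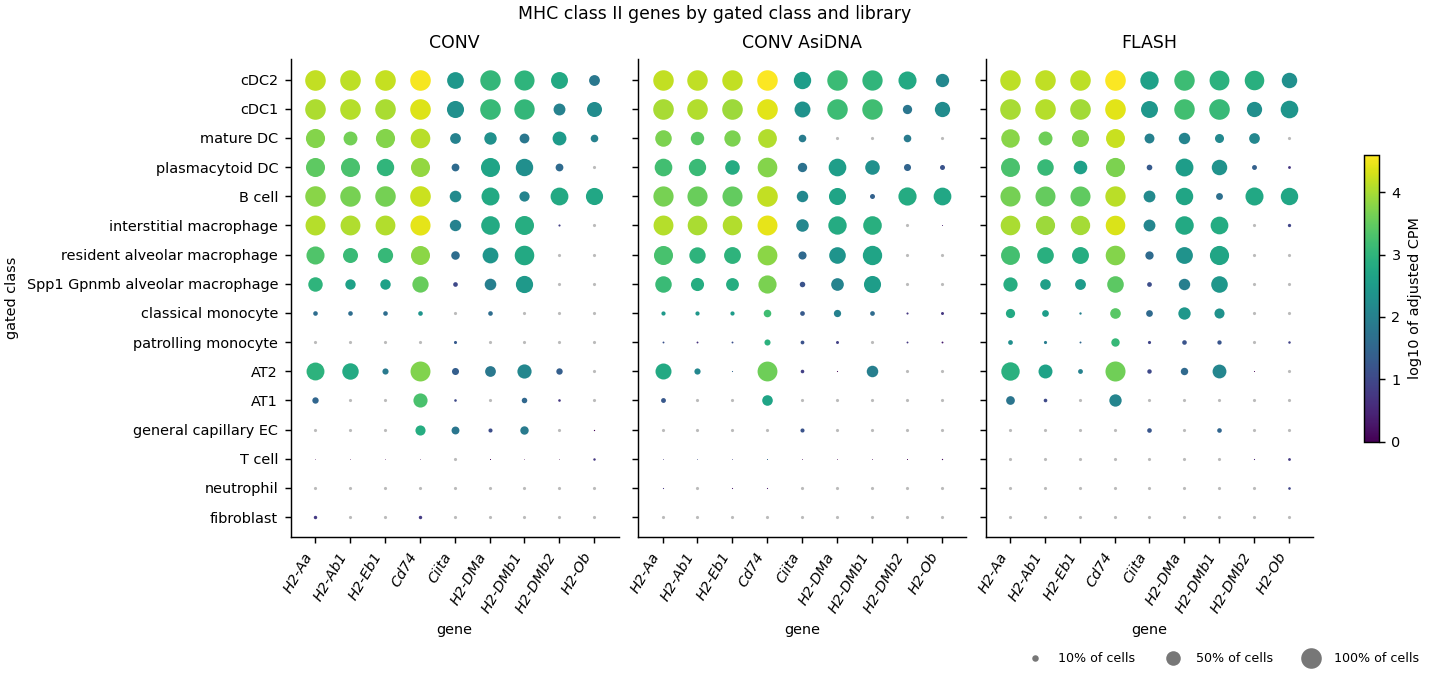
Dot plot of the 9 genes (x axis) in 16 gated classes (y axis) of each library, with the dot area giving the percentage of cells above 0 and the colour the log10 of the adjusted CPM, and a grey point where a gene was listed at 0. *H2-DMb2* and *H2-Ob* have large dots in the B cell row and none in the alveolar macrophage rows, while the *H2-DMb1* dots are larger in the alveolar macrophage rows than in the B cell row.

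The classical chains were above 0 in nearly every conventional dendritic-like cell. *H2-Ab1* stood at 14063, 14710 and 14293 adjusted CPM in cDC2-like cells (CONV, then CONV AsiDNA, then FLASH, here and in all series of 3 values) and at 12251, 11539 and 11993 in cDC1-like cells, and every cDC1-like cell of every library had all of *H2-Aa*, *H2-Ab1*, *H2-Eb1* and *Cd74* above 0. The 3 libraries lay close together in both classes, and the classes did not overlap. *H2-Aa* and *H2-Eb1* were also highest in cDC2-like cells (14738 ± 542 and 14794 ± 663), with interstitial macrophage-like cells second (11685 ± 1264 and 11090 ± 1363) and cDC1-like cells overlapping them. *Cd74*, which lies on chromosome 18, had the same leading class, at 35794 ± 1759, followed by interstitial macrophage-like (24739 ± 2422) and cDC1-like cells (24268 ± 1315), which overlapped.

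*Ciita* was also highest in cDC2-like cells, at 270.2, 346.4 and 415.1 adjusted CPM, with 66.15%, 71.14% and 79.58% of cells above 0. cDC1-like cells had 198.2, 221.6 and 269.7, just under the lowest cDC2-like library. B-like cells (148.1 ± 7.88) came before interstitial macrophage-like cells (121.3 ± 15.2), whereas the classical chains were more than 2 times as high in the macrophages as in the B cells. Thus the order of the coactivator and the order of its best known targets differed between these cell types, as a description over 3 libraries.

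The peptide exchange genes split by lineage. *H2-DMa* was highest in cDC1-like (1438 ± 163) and cDC2-like cells (1302 ± 177), which overlapped. *H2-DMb1* fell from 1305 ± 210 in cDC1-like cells through 951.7 ± 76.6 in cDC2-like, 739.4 ± 58.9 in interstitial macrophage-like, 532.9 ± 57.1 in resident alveolar macrophage-like and 305.7 ± 35.1 in *Spp1* *Gpnmb* alveolar macrophage-like cells to 118.6 ± 23.8 in AT2-like cells, and no neighbours in this order overlapped. B-like cells, with 118.6, 26.3 and 47.33, reached into the range of the AT2-like cells in CONV and lay below it in the other libraries.

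*H2-DMb2*, the neighbouring β chain gene, had another pattern. It was highest in cDC2-like (668.3 ± 119) and B-like cells (603.2 ± 35.2), which overlapped, followed by mature DC-like (177.1 ± 123) and cDC1-like cells (121.5 ± 63.7). It was listed at 0 in every resident and every *Spp1* *Gpnmb* alveolar macrophage-like cell of the 3 libraries. Of the adjusted counts of both β chain genes together, *H2-DMb2* held 83.4%, 96.06% and 92.36% in B-like cells. The share was 38.43%, 36.91% and 48.1% in cDC2-like and 8.846%, 4.087% and 13.09% in cDC1-like cells, so the 3 cell types did not overlap. These genes are close paralogs, and the sources used here do not say how the counting divided reads between them, so the size of the split is uncertain.

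*H2-Ob* was mostly a B-like cell gene, at 551.8, 548.8 and 524.8 adjusted CPM there. cDC1-like cells had 165.2, 167 and 251.5 and cDC2-like cells 68.42, 142.7 and 194.5, and the dendritic classes overlapped each other but not the B-like cells. In AT2-like and both alveolar macrophage-like classes *H2-Ob* was listed at 0 in every cell of each library. B-like cells held 95.49%, 90.94% and 85.88% of all adjusted counts of *H2-Ob* in CONV, CONV AsiDNA and FLASH, and 88.62%, 83.51% and 76.07% of those of *H2-DMb2*, while they made up 21.08%, 22.93% and 18.53% of the cells.

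The cells that supplied the other class II message differed between libraries with the cells in them. Dendritic-like cells were 2.072% of the CONV library, 5.83% of the CONV AsiDNA library and 4.42% of the FLASH library, and they held 12.42%, 29.44% and 28.97% of the *H2-Aa* counts. B-like cells held 41.19%, 30.65% and 32.05% of them and interstitial macrophage-like cells 31.76%, 29.07% and 25.86%. For *H2-DMb1* the largest holder in CONV was the *Spp1* *Gpnmb* alveolar macrophage-like class (30.85%), which had 880 cells there against 209 and 94, and in the other libraries the dendritic-like cells (37.26% and 31.29%). A share of a library total moves with the number of captured cells, so the comparisons that follow are made within a class.

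**Figure D2:**
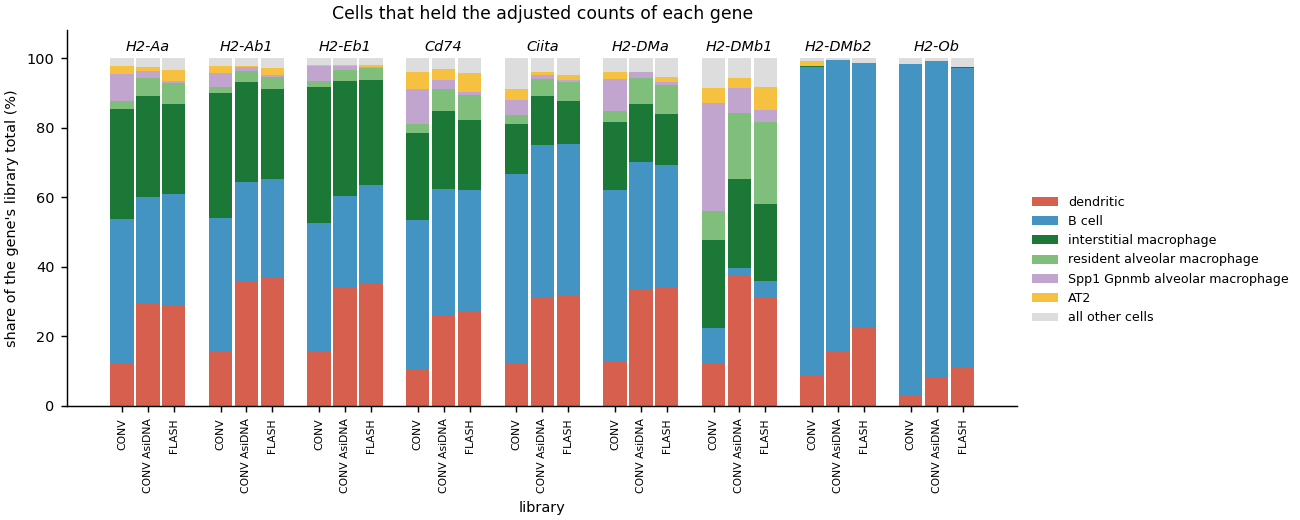
Stacked bars of the percentage of the library total of each gene (y axis) held by each gated class, with 1 bar per library and gene (x axis) and grey for all other cells. The dendritic segment is smallest in CONV for each gene, and the B cell segment takes most of the *H2-DMb2* and *H2-Ob* bars.

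Whether a cell held the message of several class II genes at once was read from the 4 most abundant, *H2-Aa*, *H2-Ab1*, *H2-Eb1* and *Cd74*. All 4 were above 0 in 100%, 98.51% and 99.3% of cDC2-like, 97.99%, 92.38% and 92.76% of B-like and 91.42%, 89.83% and 86.58% of interstitial macrophage-like cells. The share was 49.18%, 56.08% and 60.5% in resident and 21.7%, 33.97% and 23.4% in *Spp1* *Gpnmb* alveolar macrophage-like cells, and these ranges did not overlap. Mature DC-like cells, which are dendritic cells that have left the phase of antigen uptake, had only 45.45%, 42.37% and 46.15%.

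The spread between cells of one class was wide in the mature DC-like and macrophage classes. Per 10000 adjusted counts of a cell, the sum of the 4 genes had a median of 122.6 in mature DC-like cells of CONV with a 10th percentile of 11.16 and a 90th percentile of 763, and the other libraries had medians of 156.8 and 92.18. In cDC2-like cells of CONV the same values were 828, 481.4 and 1108. In mature DC-like cells *H2-Ab1* was above 0 in 10 of 22, 25 of 59 and 12 of 26 cells, fewer than for *H2-Aa* (19, 38 and 21 cells), and *H2-DMa*, *H2-DMb1* and *H2-Ob* were listed at 0 in all 59 cells of CONV AsiDNA. Plasmacytoid DC-like cells were few (7, 34 and 53) and held less, with *Cd74* at 7093, 5560 and 4926 adjusted CPM.

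**Figure D3:**
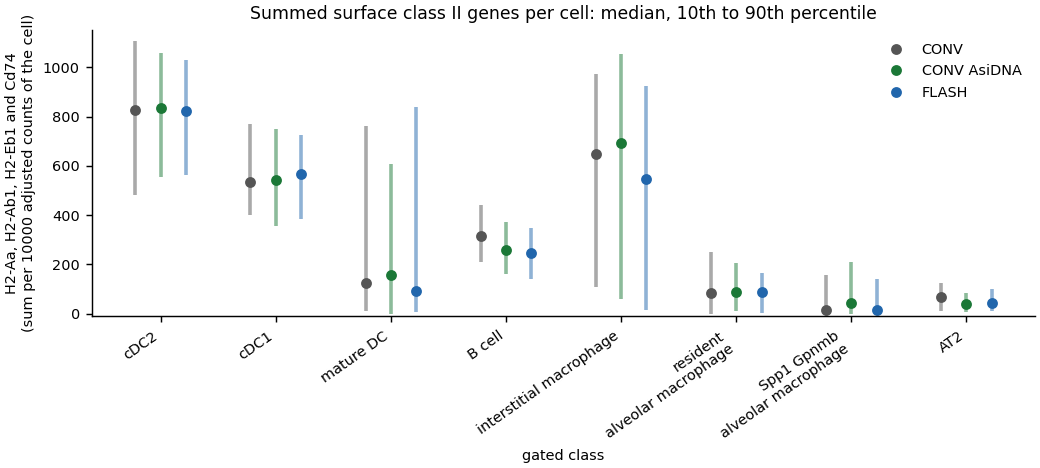
Median (point) and 10th to 90th percentile (bar) over cells of the summed *H2-Aa*, *H2-Ab1*, *H2-Eb1* and *Cd74* per 10000 adjusted counts of the cell (y axis) in 8 gated classes (x axis), by library. cDC2 and cDC1 cells sit high with their bars well above 0, while mature DC and interstitial macrophage bars reach from near 0 to the dendritic range.

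The treatments were compared within classes, a gene being called past 2-fold where the log2 ratio of adjusted CPM plus 10 was at least 1 in size. A ratio was taken where a gene summed to 20 or more over the class in the libraries together and was not listed at 0 in either library of the pair. Over the 7 classes and 3 pairs of libraries 13 of 143 ratios of the class II genes were past 2-fold (9.091%), 10 of them higher and 3 lower in the first library of the pair. Over all genes 3.524% of ratios were. The pairs share libraries, so these ratios are not independent of each other.

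In the presenting cells of the dendritic and interstitial macrophage lineages none of the 9 class II genes was past 2-fold. In dendritic-like cells 0 of 9 were past it in each pair, where 3.99% (CONV against CONV AsiDNA), 6.33% (CONV against FLASH) and 2.02% (CONV AsiDNA against FLASH) of all genes were, and the median log2 ratios of the 9 genes were −0.11, −0.18 and −0.07, beside −0.036, 0.055 and 0.072 over all genes. *Ciita* stood at 219.8, 262.9 and 327.6 adjusted CPM and *H2-Ob* at 109, 131.4 and 200, both lowest in CONV and highest in FLASH. In interstitial macrophage-like cells 0 of 7 were past it in each pair, against 2.54%, 3.97% and 1.45% of all genes, and the medians were −0.05, 0.19 and 0.28, beside 0.059, 0.076 and 0.012. *H2-Aa* there was 12385, 12444 and 10225 adjusted CPM, and FLASH was also lowest for *H2-Ab1*, *H2-Eb1*, *Cd74*, *H2-DMa* and *H2-DMb1*. With 1 mouse each, the range of mouse to mouse variation that these ratios sit in is unknown.

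Alveolar macrophages were compared as separate classes. In resident alveolar macrophage-like cells 0 of 7 class II genes were past 2-fold in each pair, against 4.94%, 5.12% and 0.654% of all genes, with medians of 0.26, 0.24 and 0.14 beside −0.095, −0.044 and 0.052 over all genes. Without the cells near the border to the other alveolar macrophages 2 ratios were past it, CONV over FLASH for *H2-Ab1* (1.07) and *H2-Eb1* (1.11). *H2-Eb1* had 1230, 961 and 718.9 adjusted CPM, while the share of cells above 0 ran the other way (54.92%, 67% and 67.51%). In *Spp1* *Gpnmb* alveolar macrophage-like cells the CONV AsiDNA library was highest for each of the 7 genes compared. *H2-Eb1* had 429.1, 690.5 and 315.2 adjusted CPM, with a log2 ratio of 1.11 between CONV AsiDNA and FLASH, the only 1 of the 21 ratios past 2-fold. Over all genes 2.53%, 3.38% and 2.38% were past it, and the medians of the 7 genes were −0.43, 0.17 and 0.76, beside −0.085, −0.003 and 0.083. Without the cells near the border between the macrophage classes the ratio was 0.95 and without the cells that scored highest as doublets 0.89, both short of 2-fold.

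**Figure D4:**
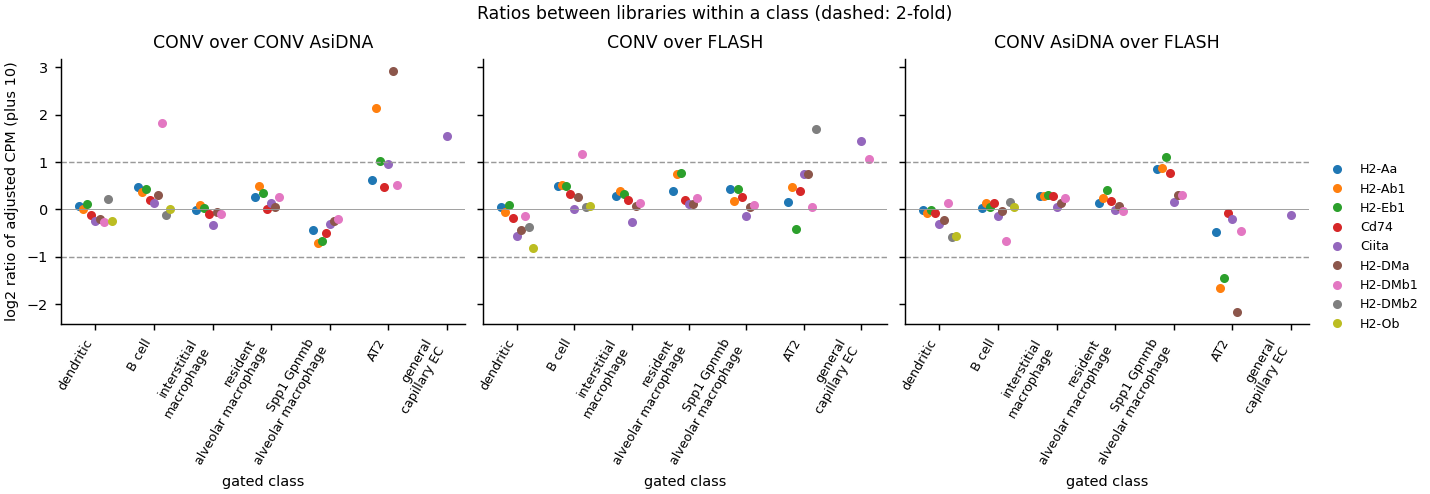
Log2 ratio of adjusted CPM plus 10 (y axis) of each class II gene (colour) in 7 gated classes (x axis), with 1 panel per pair of libraries, dashed lines at 2-fold and no point where a gene was listed at 0 or under the minimum sum. Points outside the lines lie mostly in AT2 and general capillary cells, with 1 gene (*H2-DMb1*) in B cells and 1 (*H2-Eb1*) in *Spp1* *Gpnmb* alveolar macrophages.

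In B-like cells *H2-DMb1* was the one of the 9 genes that differed most between the libraries. It was above 0 in 333 of 1343 cells of CONV (24.8%, exact 95% interval 22.51% to 27.2%), 94 of 1601 of CONV AsiDNA (5.871%, 4.77% to 7.137%) and 129 of 1161 of FLASH (11.11%, 9.361% to 13.06%). The level was 118.6 adjusted CPM in CONV against 26.3 and 47.33, log2 ratios of 1.82 and 1.17, and the 3 intervals did not overlap. The intervals here and elsewhere cover the sampling of cells only. Its neighbour *H2-DMb2* had 595.7, 641.5 and 572.4 and its partner *H2-DMa* 599.6, 483.7 and 496.8, neither past 2-fold.

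Of the 27 ratios of class II genes in B-like cells 2 were past 2-fold, both of *H2-DMb1*, with 2.49%, 2.66% and 1.3% of all genes past it, and the medians were 0.30, 0.33 and 0.06, beside −0.100, −0.116 and −0.012 over all genes. The cells of the libraries fell into different clusters, since 1 of the B cell clusters held 77.51% of the B-like cells of CONV but 37.29% and 35.14% of those of the others. Within that cluster *H2-DMb1* was above 0 in 26.9%, 7.705% and 16.42% of cells and in the next largest B cell cluster in 17.45%, 4.795% and 8.356%, so CONV was highest in both. Within the former cluster alone the log2 ratio between CONV and FLASH was 0.75, no longer past 2-fold. The ubiquitous *B2m* was above 0 in 39.99% of B-like cells of CONV against 73.45% and 73.13%, the direction opposite to that of *H2-DMb1*, and the part of the adjustment in these values was not tested.

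AT2-like cells kept *Cd74* in nearly every cell (93.79%, 93.01% and 94.81%), while the partner chains differed between the libraries. *H2-Ab1* was above 0 in 185 of 290 cells of CONV (63.79%, exact 95% interval 57.97% to 69.33%), 30 of 329 of CONV AsiDNA (9.119%, 6.237% to 12.76%) and 177 of 385 of FLASH (45.97%, 40.91% to 51.1%). Its levels were 625.7, 132.9 and 445.7 adjusted CPM, with a log2 ratio of 2.15 between CONV and CONV AsiDNA and one of −1.67 between CONV AsiDNA and FLASH. CONV AsiDNA was thus the low library, and none of the 3 intervals overlapped.

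*H2-DMa* had the same order, above 0 in 79, 1 and 50 of those cells, at 70.23, 0.63 and 37.82 adjusted CPM (log2 ratios of 2.92 and −2.17). *H2-Aa*, which encodes the chain that pairs with that of *H2-Ab1*, differed less, at 914.4, 585.3 and 818.5 adjusted CPM and 75.52%, 60.49% and 80% of cells, and was not past 2-fold. *H2-Eb1* was rare in AT2-like cells, above 0 in 26, 1 and 21 cells. Its 31.5 adjusted CPM in CONV AsiDNA, against 74.49 and 103.2, came from a single cell with 50 adjusted counts, so its ratios of 1.03 and −1.45 rest on that cell. Without the cells that scored highest as doublets the levels of *H2-Eb1* were 26.68 and 43.79 in CONV and FLASH, and it was listed at 0 in CONV AsiDNA, so this gene gave no ratio there.

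*H2-DMb2* was above 0 in 28 cells of CONV and 1 of FLASH (24.12 and 0.5403 adjusted CPM, log2 ratio of 1.69) and was listed at 0 in CONV AsiDNA. *Ciita* had 24.12, 7.561 and 10.27 adjusted CPM, and 11.72%, 3.04% and 4.675% of cells were above 0. All 4 of *H2-Aa*, *H2-Ab1*, *H2-Eb1* and *Cd74* were above 0 in 8.966%, 0.304% and 4.935% of AT2-like cells. In sum 7 of 22 ratios in AT2-like cells were past 2-fold, 4 higher and 3 lower in the first library (4 of them without the cells that scored highest as doublets, where the *H2-DMb2* ratio was lost as well), where 4.22%, 4.96% and 0.783% of all genes were. The medians of the class II genes were 0.96, 0.44 and −0.48, beside 0.024, 0.119 and 0.093 over all genes.

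Markers of other cell types were at low shares in AT2-like cells, in CONV AsiDNA and FLASH more often in those with *H2-Ab1*. In CONV the cells with *H2-Ab1* above 0 had on average 90.52% of the AT2 markers and 1.376% of the B markers above 0, the cells at 0 had 89.44% and 1.212%, and the interstitial macrophage, resident macrophage, cDC2 and T markers were at 0 in both. In CONV AsiDNA the 30 cells above 0 had 0.6061% of B, 1.515% of interstitial macrophage and 0.9091% of resident macrophage markers, above the 0.06081%, 0.0304% and 0% of the cells at 0. In FLASH the cells above 0 had 1.181% of resident macrophage and 0.2511% of cDC2 markers, against 0% for both in the cells at 0, and 0.3595% against 0.3059% of B markers. The part of these markers in the result was not tested. Median totals of AT2-like cells were 4837, 4829 and 4798 adjusted counts per cell. The low *H2-Ab1* of CONV AsiDNA stood beside a *B2m* that was highest in that library.

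**Figure D5:**
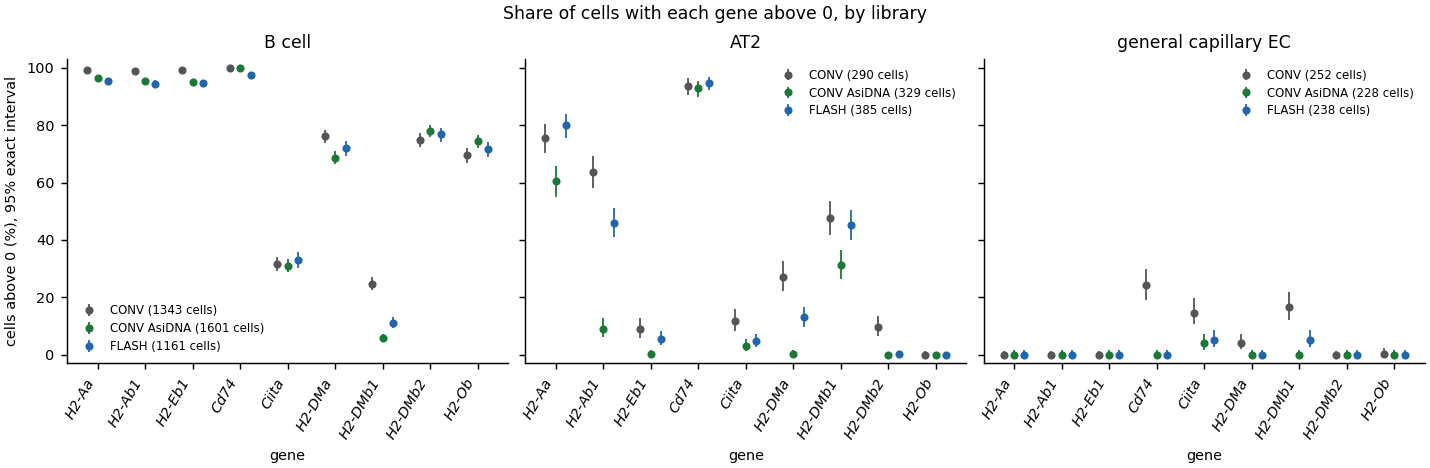
Percentage of cells above 0 (y axis) with exact 95% intervals for each of the 9 genes (x axis) in B, AT2 and general capillary endothelial cells, by library. In AT2 cells the CONV AsiDNA points for *H2-Ab1* (9.119%) and *H2-DMa* (0.304%) lie far below the others, and in capillary cells *Cd74* is above 0 in CONV alone.

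In endothelial-like cells some genes of the set were above 0 while the I-A and I-E chain genes were listed at 0. *H2-Aa*, *H2-Ab1* and *H2-Eb1* were listed at 0 in every general capillary, aerocyte and lymphatic endothelial-like cell of the 3 libraries. In general capillary cells, *Cd74* was above 0 in 61 of 252 cells of CONV (24.21%, exact 95% interval 19.05% to 29.98%) at 710.2 adjusted CPM, and was listed at 0 in all 228 and 238 cells of the others. *Ciita* was above 0 in 37, 9 and 12 cells (14.68%, 3.947% and 5.042%), at 64.06, 15.18 and 17.27 adjusted CPM, log2 ratios of 1.56 and 1.44.

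CONV was thus the high library for both genes. *H2-DMb1* followed with 78.42 adjusted CPM in CONV and 32.24 in FLASH (log2 ratio of 1.07) and was listed at 0 in CONV AsiDNA. Only 4 ratios could be taken and 3 of them were past 2-fold, in a class where 7.62%, 8.76% and 1.89% of all genes were. In these cells *Ftl1* was also listed at 0 throughout CONV AsiDNA and FLASH and above 0 in 3 cells of CONV. *B2m* was above 0 in 77.38%, 93.86% and 95.8%, lowest in CONV. The part of the adjustment in these values was not tested.

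These capillary cells came from clusters that the libraries did not share evenly. In the main capillary cluster *Cd74* was above 0 in 60 of 125 cells of CONV (48%) and *Ciita* in 34 (27.2%), against 0 and 9 of 192 cells of CONV AsiDNA and 0 and 12 of 221 cells of FLASH. In another cluster, of which 132 of 156 cells were from CONV, 116 general capillary cells of CONV had *Cd74* in none and *Ciita* in 3. Cells of CONV with *Cd74* above 0 had 77.35% of the capillary markers and 4.024% of the B markers above 0, and those at 0 had 68.78% and 5.902%. The B markers were at 1.156% and 0.9549% in the general capillary cells of CONV AsiDNA and FLASH, and their part in the result was not tested. In aerocyte-like cells, the other capillary type, *Ciita* was above 0 in 8 of 69 cells of CONV (11.59%) and listed at 0 in the other libraries.

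The rest of the pathway was read from lists of genes, over the same 7 classes and 3 pairs. Beside the 3.524% of all ratios past 2-fold, lysosomal processing genes had 13 of 115 ratios past 2-fold, interferon-γ signalling genes 15 of 165, class I genes 10 of 183 and costimulation and checkpoint ligands 6 of 82. The transcription factors of class II genes had 5 of 214, the genes of surface class II turnover 1 of 43, other class II genes 1 of 16 and the receptors of class II 3 of 9. A further 16 ratios of lysosomal genes were not taken because the gene was listed at 0 in one library, as was *Ctss*, which encodes the protease cathepsin S, in B-like cells of CONV against 342.8 and 389.8 adjusted CPM. For the first 4 lists the medians per class and pair ran from −0.57 to 0.58, −0.15 to 0.47, −0.30 to 0.70 and −0.49 to 0.59, for transcription factors from −0.30 to 0.35 and for turnover from −0.25 to 0.31. Over all genes they ran from −0.12 to 0.12.

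The genes of these lists that stood past 2-fold from both other libraries are given with their levels in CONV, CONV AsiDNA and FLASH. The minimum sum of 20 applied to the libraries together, so a low level in a single library can rest on few adjusted counts. In general capillary-like cells *Rfx5*, a subunit of the X box factor, had 24.3, 5.84 and 5.757 adjusted CPM. The interferon-γ receptor chains went opposite ways there, *Ifngr1* with 350.1, 168.2 and 126.7 and *Ifngr2* with 28.72, 74.76 and 81.75, and the protease gene *Ctsb* had 18.78, 100.5 and 57.57. *Rfx5* and *Ifngr1* were thus highest in CONV, as *Ciita* was, while *Ifngr2* and *Ctsb* were lowest there. These list genes were not read by cluster, although the capillary clusters held uneven shares of the libraries.

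In AT2-like cells *Jak2*, a kinase of the interferon-γ receptor, was highest in CONV (92.22, 29.61 and 23.77). The immunoproteasome gene *Psmb8* was lowest there in CONV AsiDNA (40.44, 3.15 and 19.99), the library with the least *H2-Ab1*. That lowest *Psmb8* level rested on 5 adjusted counts. In interstitial macrophage-like cells the lysosomal protease gene *Ctsd* was low in CONV (70.45, 516.8 and 548.9). The chemokines *Cxcl9* and *Cxcl10* went opposite ways there, with *Cxcl9* at 63.07, 12.25 and 106.7 and *Cxcl10* at 78.5, 214.9 and 29.91. In *Spp1* *Gpnmb* alveolar macrophage-like cells *Nfyc*, an NF-Y subunit, had 27.65, 31.22 and 8.296.

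The dendritic-like class pools 3 types, with mature DC-like cells 22 of 132 in CONV, 59 of 407 in CONV AsiDNA and 26 of 277 in FLASH. The part of this mix in these and the earlier levels of the class was not tested. In dendritic-like cells 3 genes were lowest in FLASH. These were *Ctsb* (156, 61.79 and 6.585), *Lgmn*, which encodes the endopeptidase legumain (75.49, 58.41 and 13.17), and *Cd274*, which encodes PD-L1 (125.8, 62.91 and 23.05). Their FLASH levels rested on 8, 16 and 28 adjusted counts. The interferon-induced *Gbp2* was highest in CONV (112.4, 47.74 and 22.23). *Lag3*, which encodes a receptor for class II, was lowest in CONV (1.678, 13.48 and 14.82). It summed to only 1 adjusted count there, against 24 in CONV AsiDNA and 18 in FLASH. In B-like cells *Lgmn* (0.2583, 14.82 and 12.32) and *B2m* (450.5, 1020 and 937.3) were low in CONV, the library with the most *H2-DMb1*. In those cells *Lgmn* summed to 1 adjusted count in CONV, against 71 in CONV AsiDNA and 44 in FLASH.

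The likeness of patterns across cell types was high within part of the class II set. Over 73 points, each 1 of 26 classes in 1 library with at least 20 cells, Pearson's r between the log2 levels of *H2-Aa* and *H2-Ab1* was 0.991, and the lowest r within the set was 0.469, between *H2-DMb1* and *H2-Ob*. *H2-DMb2* and *H2-Ob* reached 0.893. The gene outside the set most like its sum was *Ifi30* (0.909), which encodes a lysosomal thiol reductase that unfolds antigens. After it came *Pkib* (0.812), *Syngr2* (0.784), *Cd86* (0.780), *Ly86* (0.778), *Ctsz* (0.762), *Ctss* (0.758), *Pld4* (0.754), *Irf5* (0.751) and *Ctsh* (0.745).

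*Ifi30* was also the nearest gene for *H2-Aa*, *H2-Ab1*, *H2-Eb1*, *Cd74* and *H2-DMa*, with r between 0.866 and 0.927. For *Ciita* it was the costimulatory ligand gene *Cd86* (0.847), for *H2-DMb1* *Slamf9* (0.836), for *H2-DMb2* the B cell lectin gene *Siglecg* (0.921) and for *H2-Ob* *Btla* (0.889). The points share libraries, and classes that come from one lineage are alike for many genes, so these values describe the pattern over these cells.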

How the data were processed

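Single-cell RNA libraries of the lungs of 3 mice (CONV, CONV AsiDNA and FLASH) were analysed. The authors deposited, per library, a whole number for each cell and each of 22954 genes, stored as the natural log of that number plus 1. Per the labels, Cell Ranger 6.0.0 and mm10 were used, and the paper names R and Seurat. How cells were filtered and how values were adjusted is not given in the sources used. The plan had allowed for raw counts. The files held logs, so no count model and no counting interval was used. The 12 columns of per-sample values in 4 tables of the whole series were not used. Values were converted back to whole numbers. Cells with fewer than 200 genes above 0 were removed (1, 2 and 0), which left 6371, 6981 and 6267 cells with totals of 23908890, 26417388 and 23383510 adjusted counts.

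Cells were gated on markers, and class sums were scaled to 1000000 of the class. Log2 ratios used a prior of 10, which understates changes of low genes, and genes with a sum of at least 20. Shares carry exact Clopper-Pearson 95% intervals. All 9 class II genes are named. List genes are named where past 2-fold in one direction against both other libraries, together with the 10 genes most like the sum of the set and the 1 most like each of its genes. Single genes among those used to check the values, *B2m* and *Ftl1*, were picked after the values were seen. The genes, the lists (other class II genes, lysosomal processing, transcription of class II genes, turnover of surface class II, costimulation and checkpoint ligands, interferon-γ signalling, class I, receptors of class II) and the markers were chosen with earlier results of these data known. The clustering without the class II genes was by Leiden (resolution 1) on 15 neighbours in 30 principal components of 2000 variable genes. The fold calls and the exact intervals were tested on simulated data, and the gate was not.

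The alternatives were a gate with 1 more marker, the Leiden clusters, leaving out the 6% of each library that scored highest in Scrublet, at least 500 genes per cell, equal weight per cell, a prior of 1, a minimum sum of 50 or none, a fold of 1.5, scaling by the median gene ratio, and thinning of each cell to 1000 adjusted counts, which left out 0 cells. Chosen after seeing the data were B-like cells of 1 cluster alone, general capillary cells without the cluster mostly of CONV, and cells not within 0.1 of the next class. Python 3.11.15, scanpy 1.11.5, pandas 2.3.3, scipy 1.17.1, numpy 2.4.6, igraph 0.11.9 and matplotlib 3.10.9 were used.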

Additional observations from a re-analysis of the deposited data

How the results depend on the processing

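Of the 13 ratios past 2-fold, 142 recomputed values under the alternatives were obtained, 138 were still past 2-fold, 4 were not and 0 were reversed. The 4 values no longer past 2-fold were *H2-DMb1* in B-like cells (CONV over FLASH, 0.75 in the cluster with most CONV cells), *H2-Eb1* in AT2-like cells (CONV over CONV AsiDNA, 0.84 with equal weight per cell) and *H2-Eb1* in *Spp1* *Gpnmb* alveolar macrophage-like cells (CONV AsiDNA over FLASH, 0.95 without cells near the border and 0.89 without the highest Scrublet scores). With a fold of 1.5 the ratios past it were 11 of 22 in AT2-like cells (14.5% of those of all genes), 6 of 21 in *Spp1* *Gpnmb* alveolar macrophage-like (14.4%), 2 of 27 in dendritic-like (17.2%) and 2 of 21 in resident alveolar macrophage-like cells (14.8%). Without the highest Scrublet scores they were 4 in AT2-like cells, where *H2-Eb1* of CONV AsiDNA and *H2-DMb2* of FLASH were then listed at 0 and gave no ratio, and 0 in *Spp1* *Gpnmb* alveolar macrophage-like cells. Without cells near the border they were 0 in the latter and 2 in resident alveolar macrophage-like cells, and in the one B cell cluster the count was 1. A lower fold calls more by construction, and for the rest the cause was not tested.

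Thinning each cell to 1000 lowered shares by construction while CONV stayed highest for the shares given here. *H2-Ab1* in AT2-like cells was then above 0 in 34.83%, 5.167% and 21.82% of cells of CONV, CONV AsiDNA and FLASH, and *H2-DMb1* in B-like cells in 11.39%, 2.061% and 3.876%. *Ciita* in general capillary cells was at 5.952%, 2.193% and 1.261%. All 4 of *H2-Aa*, *H2-Ab1*, *H2-Eb1* and *Cd74* were above 0 in 2.759% of AT2-like cells in CONV and 2.597% in FLASH. These shares were nearly equal, against 8.966% and 4.935% before thinning. In CONV AsiDNA the share with all 4 above 0 was 0 in the Leiden clusters and 0 without the highest Scrublet scores. In the one B cell cluster *H2-DMb1* was above 0 in 7.705% (CONV AsiDNA) and 16.42% (FLASH). Without the capillary cluster mostly of CONV, *Cd74* was above 0 in 44.85% and *Ciita* in 25% of general capillary cells of CONV. No paired analysis was possible because each condition has 1 mouse and the results come from no test. Leaving out a replicate was not possible for the same reason.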

Other observations

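Alveolar type 1-like cells, the flat cells of gas exchange, had *Cd74* above 0 more often than its partners. It was above 0 in 59 of 125 cells of CONV (47.2%), 19 of 72 of CONV AsiDNA (26.39%) and 46 of 128 of FLASH (35.94%), at 1919, 495.3 and 124.3 adjusted CPM, while *H2-Aa* was above 0 in 9.6%, 5.556% and 17.97% and *H2-Eb1* was listed at 0 throughout. The cells with *Cd74* were shallower, with a median total of 1876 against 3478 adjusted counts in CONV, 1831 against 3906 in CONV AsiDNA and 1618 against 3894 in FLASH. They had 66.27%, 61.05% and 60.87% of the alveolar type 1 markers above 0, against 78.33%, 89.81% and 93.66% in the cells at 0, and 15.72%, 8.612% and 6.917% of the AT2 markers, against 6.612%, 1.887% and 0%.

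Class II genes differed among the libraries in monocyte-like cells. In patrolling monocyte-like cells *Cd74* was listed at 0 in all 44 cells of CONV and above 0 in 21 of 239 cells of CONV AsiDNA (8.787%) and 57 of 341 of FLASH (16.72%). In classical monocyte-like cells *H2-DMa* was above 0 in 1 of 20 cells of CONV, 12 of 96 of CONV AsiDNA and 27 of 75 of FLASH, while *H2-Eb1* was highest in CONV AsiDNA (41.64, 335.7 and 99.37 adjusted CPM). All 4 of *H2-Aa*, *H2-Ab1*, *H2-Eb1* and *Cd74* were above 0 in only 1 of 20, 4 of 96 and 1 of 75 of these cells, too few to order the libraries. Club-like cells had *Cd74* above 0 in 11 of 93 cells of FLASH and listed at 0 in the other libraries, and ciliated-like cells had it in 0.3322%, 0.9479% and 8.464% of cells. With 1 mouse per condition the differences were not tested.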
